A study of Homo sapiens with 12 samples.

Results

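HCT-116, an established line of human colorectal carcinoma cells, was exposed to heteronemin and tetrac together for 24 h and set against the study's Control samples. The comparison takes in 6 of the 12 samples of the series, 3 labelled Heteronemin+Tetrac and 3 labelled Control, chosen by their treatment label. The other samples received heteronemin alone or tetrac alone, 3 each, and all groups share the cell line. The labels do not say what the Control samples received, give no doses, and do not say whether the samples of a group were separate cultures. A single tumour line is a limited model of the disease.

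Heteronemin is a sesterterpenoid made by a marine sponge. Tetrac, tetraiodothyroacetic acid, is a deaminated analogue of thyroxine that competes with thyroid hormone for a site on the integrin αvβ3 at the cell surface, from which signals run into the MAP kinase and PI3 kinase cascades. The epidermal growth factor receptor, named in the study's title, feeds the same cascades. One of their nuclear endpoints is AP-1, a dimer of JUN and FOS proteins that switches on secreted factors, matrix genes and regulators of cell shape. Signalling itself was not measured: the NanoString panel counts transcripts of 770 genes related to tumour progression, 740 endogenous and 30 housekeeping.

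The authors' deposited table holds 1 normalized count per gene and group, called a group mean here, and 1 p-value per gene printed to 2 decimals. Single samples were not analysed here; the means therefore carry no SD, and overlap between groups cannot be described. The 3 samples of a group may be technical repeats, in which case each p reflects technical spread alone. The lowest value in the table was 33, which serves as a floor: 279 genes were at it in Control and 491 above it. A gene is called changed where the authors' p was under 0.05; "rose" and "fell" are used of called genes only. In the Control group the epithelial genes EPCAM, ESRP1, KRT19 and CDH1 had means of 1814, 1712, 1604 and 509, while CEACAM6 (48.1) and KRT7 (34.1) were near the floor and CEACAM5 was at it. These are the 7 epithelial markers measured. Of 16 measured markers of endothelial, blood and stromal cells, 12 were at the floor in Control and the highest, CD34, had a mean of 35.6. After the combination the summed mean of those 16 markers was 721 against 532 in Control, CD34 was again the highest at 76.3, 1 marker was at the floor and 0 were called; the part of this shift in the results below was not tested. The sum over the whole panel was 297671 after the combination and 333810 in Control, while the housekeeping genes had geometric means of 297.5 and 299.6. Scaling to the panel sum instead of the authors' normalization would add 0.17 to every log2 ratio.

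The largest changes under the combination were rises. CXCL8, the gene of the neutrophil attractant interleukin-8, went from a mean of 65.5 to 892, and the laminin chain gene LAMB3 from 102 to 363. In the other direction BMP4, a secreted bone morphogenetic protein, went from 3561 to 1423. In all, 153 of the 686 genes with a p were called (22.3%), 56 higher (8.16%) and 97 lower (14.1%). At a size of 1.5-fold or more, 69 were called (10.1%), 38 higher (5.54%) and 31 lower (4.52%). The other 84 called genes changed by less than 1.5-fold, 66 of them lower and 18 higher. Of the called genes, 17 lay from 1.5-fold to under 1.55-fold and 9 from 1.45-fold to under 1.5-fold, so the size limit falls in a dense part of the range. Adjusting the printed p-values by Benjamini-Hochberg left 48 genes, the same number as have a printed p of 0, and the rounding of p to 2 decimals allows the count to be 0.

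Nearly all calls came from genes above the floor in Control: 152 of 491 (31.0%), 55 higher and 97 lower. Among genes at the Control floor, 195 had a p and 1 was called (0.513%). Among the 491 genes above the floor, the log2 ratio had a median of -0.05 and quartiles of -0.29 and 0.29. The median went down from class to class of Control mean. It was 0.47 for the 90 genes above the floor and under 50, and 0.24 for the 58 genes from 50 to under 100. It was -0.04 for the 75 genes from 100 to under 200, -0.10 for the 101 from 200 to under 400, -0.21 for the 75 from 400 to under 800, and -0.26 for the 92 genes at 800 or more. The direction of the calls followed the same order: with a Control mean under 100, 24 genes rose and 6 fell, and at 100 or more, 32 rose and 91 fell. At 800 or more, CLDN7 and CLU were the 2 genes that rose, against 32 that fell. The Control mean enters both the class and the ratio, so class and ratio are not independent. Without regard to p, 87 genes were at least 1.5-fold higher and 34 at least 1.5-fold lower, so 71.9% were higher. The 87 include 25 genes at the Control floor, which could not be lower. Scaled to the panel sum the counts were 179 and 11, or 94.2% higher. Among genes above the Control floor they were 62 and 34, and with the floor raised to 100 they were 22 and 31.

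**Figure D1:**
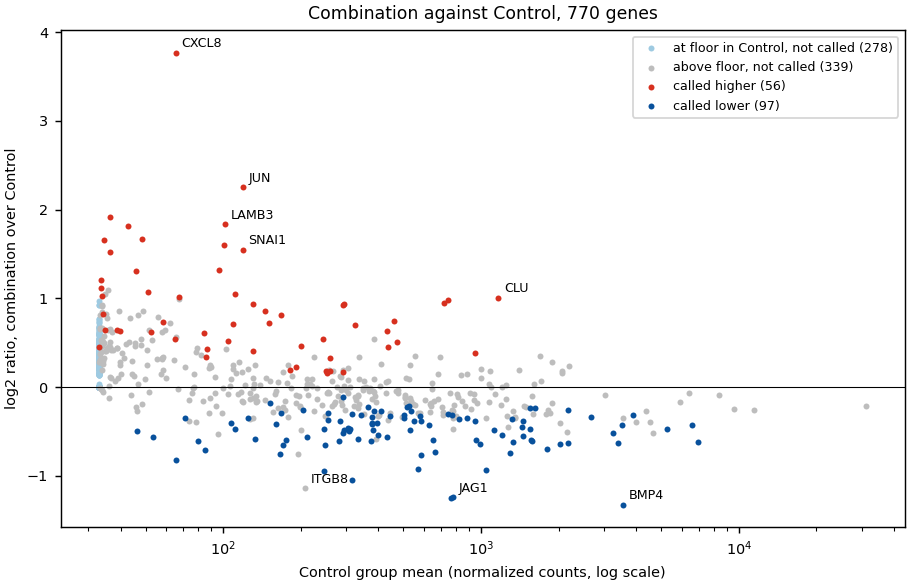
Each point is 1 of 770 genes, with its Control group mean in normalized counts on a log axis and the log2 ratio of the combination mean over the Control mean. Of the 56 genes called higher, 24 have a Control mean under 100, against 6 of the 97 called lower, and the column of points at the left edge is the set of genes at the floor of 33 in Control.

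Transcription factors and growth regulators opened the list of rises. JUN, a subunit of AP-1, had means of 119 in Control, 126 after tetrac, 419 after heteronemin and 569 after the combination. MYCL, of the MYC family, rose from 36.5 to 105. SNAI1, which represses the E-cadherin gene, rose from 119 to 349, and ZEB1, a second repressor of that gene, from 33.9, just above the floor, to 69.2. Their classical target CDH1 had means of 509 in Control and 471 after the combination and was not called. BTG1, an antiproliferative factor, rose from 324 to 529.

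Genes of stress responses and secreted proteins were also among the rises. HMOX1, the haem oxygenase induced by oxidants, went from 96.6 to 242, with 95.6 after tetrac and 207 after heteronemin. GDF15, a cytokine secreted by stressed cells, went from 748 to 1479, and CLU, the extracellular chaperone clusterin, from 1169 to 2352. WARS, which encodes tryptophanyl-tRNA synthetase, rose from 292 to 552, and NDRG1, a gene induced by low oxygen and by stress, from 721 to 1388. ADM2, a peptide hormone of the adrenomedullin family, rose from 67.3 to 136.

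LAMB3 and LAMA3, chain genes of the laminins that anchor epithelial cells, both rose. LAMB3 went from 102 to 363 and LAMA3 from 46.1 to 114. COL7A1, the collagen of the anchoring fibrils, rose from 51.1 to 108. The integrin chain gene ITGB4, whose protein is part of the cell's receptor for such laminins, fell from 1299 to 776. Other matrix genes that rose were SPP1, or osteopontin (36.4 to 137), the matricellular protein gene THBS1 (84.6 to 129), DPT, or dermatopontin (33.5 to 77.5), CCDC80 (33.5 to 72.7) and SRPX2 (38.9 to 60.6). Except for THBS1, these started near the floor.

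A pair of protease genes rose at 1.5-fold or more. CTSL, the lysosomal protease cathepsin L, went from 294 to 563, and ADAM17, the sheddase that releases EGF receptor ligands from the membrane, from 434 to 672. Of the angiogenic genes, VEGFA rose from 461 to 771, FGF2 from 109 to 179 and ANGPTL4, which restrains lipoprotein lipase, from 48.6 to 155. NRP1, a co-receptor for VEGF and semaphorins, rose from 42.8 to 150, and ANGPTL2 from 34.8 to 54.5.

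The remaining rises were spread over receptors, enzymes and epithelial genes. TNFRSF12A, the receptor for the cytokine TWEAK, rose from 58.2 to 97.0, the receptor phosphatase gene PTPRM from 131 to 251, and the tyrosine kinase gene PTK6 from 39.8 to 61.5. CHRNA7, a nicotinic receptor subunit gene with a partly duplicated copy that makes its identity uncertain, rose from 168 to 295. KRT7, a keratin, went from 34.1 to 60.5, the actin-binding spindle protein gene MISP from 151 to 250, and the fucosyltransferase gene FUT3, which has close paralogues, from 52.5 to 81.0. HKDC1, of the hexokinase family, rose from 34.4 to 109, and POPDC3, a Popeye domain membrane protein gene, from 101 to 307. Of the 38 rises, 13 started from a Control mean under 50, 7 from 50 to under 100 and 18 from 100 or more.

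**Figure D2:**
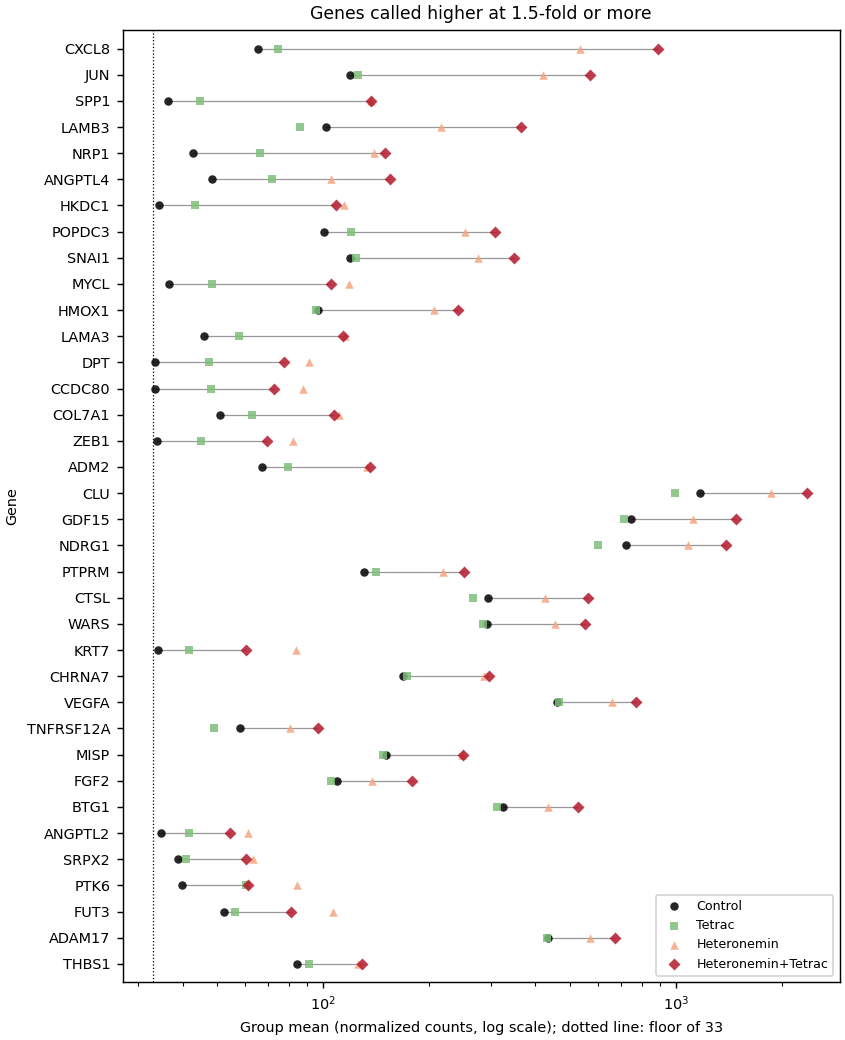
Each row is 1 of 36 of the 38 genes called higher at 1.5-fold or more, with its 4 group means in normalized counts on a log axis: Control (circles), tetrac (squares), heteronemin (triangles) and the combination (diamonds), the line joining Control to the combination. The tetrac means lie close to Control in most rows, and the combination lies right of heteronemin in all 16 plotted genes whose Control mean was 100 or more.

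JUN is a subunit of AP-1, so promoters were searched for the AP-1 letters TGACTCA on both strands, over the 250 bases before each start site in the RefSeq promoter table (GRCh38.p14). Of the 38 genes that rose, 27 matched a promoter, and 4 of these held the letters: CXCL8, LAMA3, LAMB3 and SRPX2. Of the 31 genes that fell, 22 matched and 0 held them. The letters were in 43 of 566 matched panel genes (7.60%) and 4.20% of all 35116 promoters in the table. The 4 stretches of 100 bases below are on the gene's strand, 5′ to 3′, with the AP-1 letters in capitals, and LAMA3 holds 2 matches.

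CXCL8, chr4:73740409-73740508, plus strand: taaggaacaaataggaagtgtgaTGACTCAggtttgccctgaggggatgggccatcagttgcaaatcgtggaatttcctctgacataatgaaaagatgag
LAMB3, chr1:209651395-209651494, minus strand: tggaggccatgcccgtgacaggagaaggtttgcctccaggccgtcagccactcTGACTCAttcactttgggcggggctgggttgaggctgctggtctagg
LAMA3, chr18:23872870-23872969, plus strand: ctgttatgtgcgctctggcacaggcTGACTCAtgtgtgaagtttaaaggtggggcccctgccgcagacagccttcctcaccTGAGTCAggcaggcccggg
SRPX2, chrX:100644039-100644138, plus strand: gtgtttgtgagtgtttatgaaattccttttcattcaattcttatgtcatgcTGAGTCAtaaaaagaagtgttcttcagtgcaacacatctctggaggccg

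The stretches end 61, 21, 51 and 61 bases before the start site, in that order; the LAMB3 stretch belongs to 1 of the 3 start sites the table lists for the gene. A match is a description of the letters and shows no binding. The other motifs searched on both strands were the antioxidant element TGACNNNGC, the hypoxia element ACGTG and the SNAI E-box CAGGTG. The antioxidant element overlaps the AP-1 letters in SRPX2. In LAMA3 the E-box, read on the opposite strand, overlaps the AP-1 match nearer the start site. The antioxidant element was in 4 of the 27 risers and 3 of the 22 fallers, against 15.2% of panel genes and 10.9% of all promoters. The hypoxia element was in 7 risers and 10 fallers, against 26.5% and 18.5%, and the E-box in 7 risers and 4 fallers, against 24.7% and 17.5%. Genes with the hypoxia letters thus stood on both sides, as the glycolytic gene LDHA, which fell, and ANGPTL4, which rose, show with those letters in capitals. Their stretches end 51 and 201 bases before the start site, in that order. The LDHA stretch belongs to 1 of the 2 start sites listed for the gene.

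LDHA, chr11:18394363-18394512, plus strand: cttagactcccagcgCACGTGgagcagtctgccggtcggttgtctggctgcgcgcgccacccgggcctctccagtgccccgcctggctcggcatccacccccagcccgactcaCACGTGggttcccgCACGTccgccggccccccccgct
ANGPTL4, chr19:8363905-8363954, plus strand: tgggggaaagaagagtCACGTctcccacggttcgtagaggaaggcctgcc

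Among the 31 falls, those of the BMP pathway genes BMP4 and ID2 were the largest in fold. BMPs bind paired serine kinase receptors, which activate SMAD proteins that switch on the ID genes, inhibitors of differentiation factors. The ligand gene BMP4 had means of 3561 in Control, 3219 after tetrac, 1550 after heteronemin and 1423 after the combination. The receptor gene BMPR2 fell from 65.7 to 37.1, close to the floor, and the target genes ID2 and ID1 fell from 766 to 323 and from 3395 to 2196. JAG1, a ligand of Notch receptors, fell from 782 to 332.

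Growth and cell cycle genes fell as well. MAPK3, which encodes the kinase ERK1, went from 586 to 343, with 476 after tetrac and 340 after heteronemin. The growth factor gene FGF9 fell from 171 to 109, RGCC, a regulator of the cell cycle, from 246 to 127, and PTTG1, or securin, from 2026 to 1295. Of transcription and chromatin regulators, the histone demethylase gene KDM1A fell from 1334 to 866, GTF2I, which has near-identical pseudogene copies, from 1809 to 1113, NFAT5, a factor of the osmotic response, from 666 to 400, and SOX9, a factor of intestinal crypt cells, from 1566 to 1038.

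Genes of cell shape and motility formed another block. CAV1, the coat protein of caveolae, fell from 1048 to 549, and GSN, the actin-severing protein gelsolin, from 570 to 300.2. ROCK2, a kinase gene of actin contraction, fell from 1578 to 1035, the actin-binding CALD1 from 961 to 636, and ARAP2, a regulator of small GTPases, from 247 to 157. The junction gene JCAD, listed as KIAA1462, fell from 165 to 98.1, and the LIM domain gene CRIP2 from 79.8 to 52.6.

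Epithelial surface genes, enzymes and matrix genes made up the rest. ST14, the membrane protease matriptase, fell from 995 to 638. The sodium channel subunit gene SCNN1A was at 653 in Control, 800 after tetrac, 374 after heteronemin and 433 after the combination. The tetraspanin gene TSPAN1 fell from 84.7 to 51.9 and envoplakin, EVPL, from 335 to 222. The lysosomal protease gene CTSH fell from 316 to 152, LDHA, or lactate dehydrogenase A, from 6960 to 4543, the glycosyltransferase gene GALNT7 from 374 to 246 and the calcium-dependent kinase gene CAMK2D from 2186 to 1416. COL18A1, the collagen that contains endostatin, fell from 282 to 185 and the matrix gene FBLN1 from 176 to 116. Of the 31 falls, 28 started from a Control mean of 100 or more, 11 of them from 1000 or more.

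**Figure D3:**
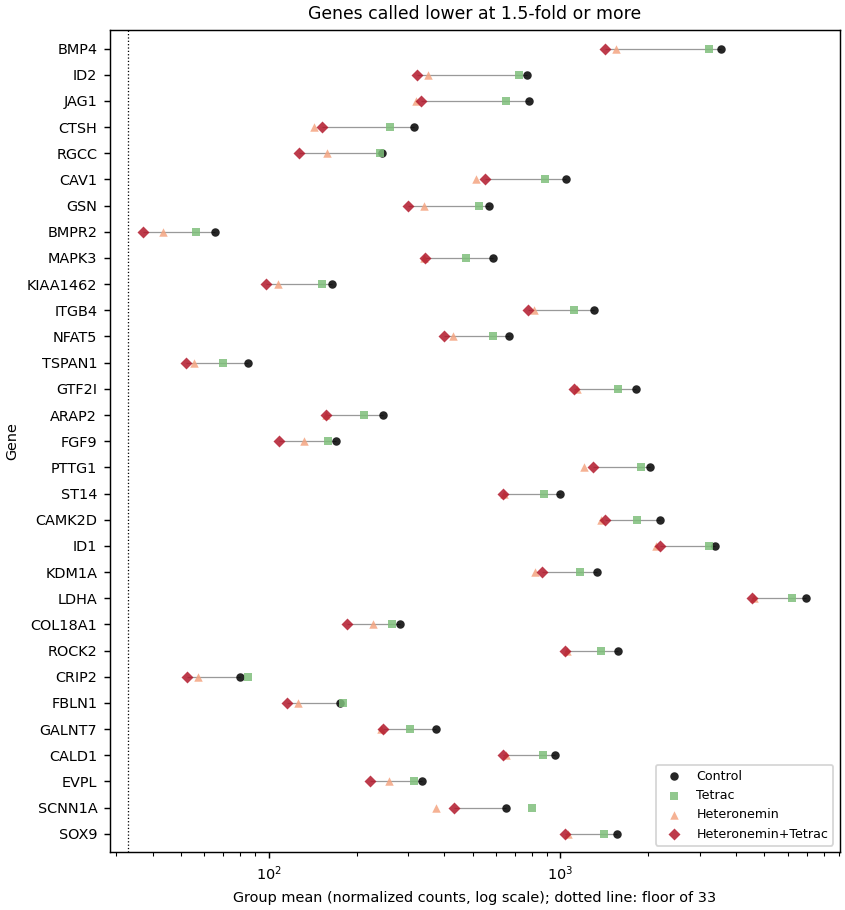
Each row is 1 of the 31 genes called lower at 1.5-fold or more, with its 4 group means in normalized counts on a log axis and the line joining Control to the combination. Heteronemin and the combination lie close together left of Control in most rows, and SCNN1A is a row in which the tetrac mean lies right of Control.

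The gene lists were chosen with earlier results of these data known, so the shares called in them are not independent of these data. Of the 770 genes, 286 were members of at least 1 list and 75 of them were called. The other 78 called genes were in none. Over all tested genes 22.3% were called. In the EGF receptor list, 0 of 17 tested genes rose and 3 fell: MAPK3, the lipase gene PLCG1 (378 to 283) and EGFR itself (502 to 404). That share is near the 14.1% of all tested genes that fell. The sister receptors ERBB2 (99.9 and 99.5) and ERBB3 (78.2 and 59.4) were not called. Of the 14 tested members of the PI3K and AKT list 2 fell, the kinase gene AKT1 (1440 to 1053) and the regulatory subunit gene PIK3R2 (304 to 221). The medians of these lists were -0.18 and -0.14 on the log2 scale, against 0.17 over all tested genes. Scaled to the panel sum, the list medians were -0.01 and 0.03. The value of 0.17 includes genes at the Control floor, whose ratio could not be under 1. The 13 and 12 members with a Control mean of 100 or more had medians of -0.19 and -0.21. Of these members 3 and 2 fell. Over all genes at that level the median was -0.16 and 26.5% fell.

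The BMP and TGF-beta list had 10 of 26 tested genes lower and 0 higher, against 14.1% of all tested genes that fell. Besides BMP4, BMPR2, ID1 and ID2 these were the ligand genes BMP7 (70.9 to 55.7) and TGFB1 (283 to 217), the receptor gene TGFBR2 (384 to 318), the signal transducer genes SMAD1 (395 to 299) and SMAD2 (946 to 727), and LTBP4, which stores latent TGF-beta in the matrix (379 to 301). Ligands, receptors, transducers and targets were thus all among the members that fell. The list's median log2 ratio was -0.16, or 0.00 scaled to the panel sum, and the 15 members with a Control mean of 100 or more had a median of -0.29. Of those 15 members 8 fell. Over all genes at that level 26.5% fell and the median was -0.16. In the Notch list JAG1 was the 1 called gene of 4.

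In the cell cycle and RB list, 5 of 8 genes fell and 0 rose, with a median log2 ratio of -0.36, against 14.1% of all tested genes that fell. Among them were PTTG1, the retinoblastoma gene RB1 (586 to 450.0), its relative RBL1 (399 to 273) and the small GTPase gene CDC42 (2671 to 2107). The cytoskeleton list had 4 of 9 lower, CAV1, GSN, ROCK2 and CDC42, and 0 higher, with a median of -0.34. Both medians stayed below 0 when scaled to the panel sum, at -0.20 and -0.18. With 1 exception in each list, the members had Control means of 100 or more, a range in which 91 of the panel's 343 genes fell (26.5%).

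Over all tested members, rises outnumbered falls in some other lists. Of 6 stress genes 4 rose (GDF15, HMOX1, JUN and NR4A3, at 64.8 to 94.5) and SOD1, a superoxide dismutase gene, fell (317 to 257). In the list of AP-1, immediate-early and MYC factors, 3 of 7 rose (JUN, MYCL and the nuclear receptor gene NR4A3) and the ETS factor gene ETV4 fell (245 to 177). The laminin and hemidesmosome list had 5 of 12 higher, among them LAMB3, LAMA3, COL7A1 and LAMA5 (293 to 329), and 2 lower, ITGB4 and the linker gene DST (578 to 460). Of 25 angiogenic genes 7 rose, among them PDGFA (86.4 to 116), and 3 fell, the receptor gene FGFR3 (296 to 212), AGGF1 (204 to 170) and PDGFC (167 to 137). Of 17 hypoxia and glucose genes 4 rose (ANGPTL4, HKDC1, NDRG1 and VEGFA) and LDHA fell. These counts of rises stand against 8.16% of all tested genes. Among members with a Control mean of 100 or more, 2 angiogenic genes rose and 3 fell, with a median log2 ratio of -0.26. At that level the AP-1 and MYC list had 1 higher and 1 lower and the stress list 2 and 1. The laminin list had 3 and 2 and the hypoxia list 2 and 1. Over all genes at that level 32 rose and 91 fell.

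The counts of the remaining lists stand against the same 8.16% of all tested genes that rose and 14.1% that fell. Of 25 proteases and inhibitors, 4 rose (CTSL, ADAM17 and the urokinase receptor gene PLAUR, 104 to 150, were among these) and 3 fell (CTSH, ST14 and the membrane metalloprotease gene MMP14, 125 to 98.6). COL7A1 was the 1 collagen of 9 that rose, and COL18A1, COL6A1 (309 to 224) and COL6A2 (292 to 269) fell; COL6A2 is the 1 called gene whose direction turned when scaled to the panel sum, to a log2 ratio of 0.05. Of 14 integrins, ITGB4 and the collagen-binding chain gene ITGA2 (377 to 284) fell and 0 rose. Among 19 epithelial genes KRT7 and S100A14 (261 to 326) rose and ST14, SCNN1A and the sorting adaptor gene AP1M2 (1121 to 803) fell. Of 13 junction genes, CLDN7, a claudin of tight junctions, rose (951 to 1244), and CTNNB1, or beta-catenin (3253 to 2281), and TJP3 (293 to 204) fell. In the mesenchymal list SNAI1, SPP1 and ZEB1 rose and fibronectin, FN1, fell from 46.5 to the floor, of 14 tested. In the WNT list CTNNB1 and the adhesion receptor gene CD44 (2183 to 1832) fell, of 7. CXCL8 was the 1 called gene of 17 inflammatory mediators, while no call fell on the 4 tested ephrin receptor genes or the 15 tested endothelial, blood and stromal markers (0 of each list). The lists share members, and were not tested as sets.

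**Figure D4:**
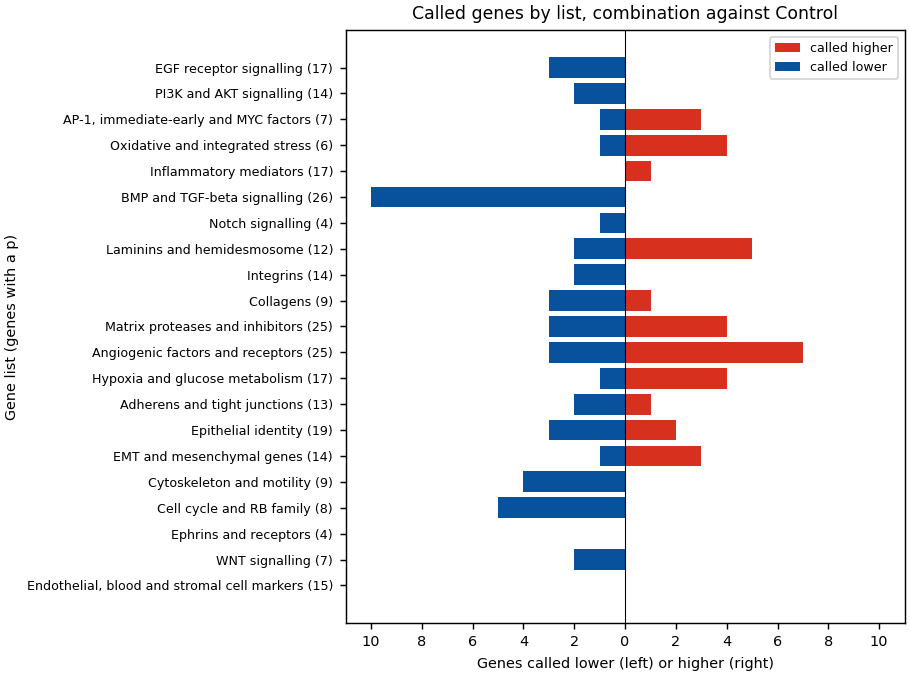
Bars count the genes of each list called lower (left) or higher (right) after the combination, with the number of tested genes in brackets. The BMP and TGF-beta list has 10 genes lower and 0 higher, and the angiogenic list has 7 higher and 3 lower.

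The smaller changes, under 1.5-fold, were mainly falls of well-expressed genes. They include the metastasis-associated kinase gene NME1 (5270 to 3800), the galectin gene LGALS1 (6573 to 4889), the complement regulator gene CD46 (1211 to 835) and the E2F partner gene TFDP1 (1458 to 997). The smaller rises include the tissue factor gene F3 (201 to 277), the syndecan gene SDC4 (474 to 675) and the TNF receptor gene TNFRSF1A (437 to 597). These 7 were chosen after their values were seen. Of the 30 housekeeping genes 3 fell, HDAC3 (504 to 396), SAP130 (433 to 295) and USP39 (770 to 622), and 0 rose. Over all tested genes, 14.1% fell and 8.16% rose.

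Genes at the floor in Control were a different case. Of these 279, 84 were also at the floor after the combination and have no p, and 195 were above it, with means from 33.7 to 64.8 and a median of 43.1. Since no group goes below the floor, none of these genes could have a ratio under 1. Their median log2 ratio was 0.39 and the highest 0.97, so 0 reached 2-fold and 25 reached 1.5-fold. The 1 called gene was HAS1, a hyaluronan synthase gene, with a combination mean of 45.2 and means of 70.6 after heteronemin and 37.6 after tetrac. The 10 largest ratios, none of them called, were those of genes that reached these combination means: the blood and endothelial factor TAL1 (64.8), the neural adhesion molecule NCAM1 (62.5), the chemokine receptor CCR2 (62.5), GDF6 (56.3), BAI1 (56.2), ZFPM2 (55.3), the Notch ligand DLL4 (54.9), NDNF (54.6), SV2B (53.2) and the chemokine CCL21 (52.9). The 20 genes just above the floor in Control, at means from 33.1 to 33.9, had a median log2 ratio of 0.49, with 2 called.

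The printed p of the floor genes fell mostly on 1 value. In the authors' deposited table, 148 of the 195 (75.9%) had a p of 0.42, and these had a median combination mean of 42.1, against 47.4 for the other 47. The authors' test is not given in the sources used here. Computed for a Control group entirely at 33 and a combination group with 1 value above 33 and the others at it, a comparison of means with unequal variances gives a p of 0.4226 whatever the height of that value, and one with a pooled variance gives 0.3739. With 2 equal values above 33 the unequal-variance comparison gives 0.1835. Whether 1 library carried these means cannot be read from group means alone.

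**Figure D5:**
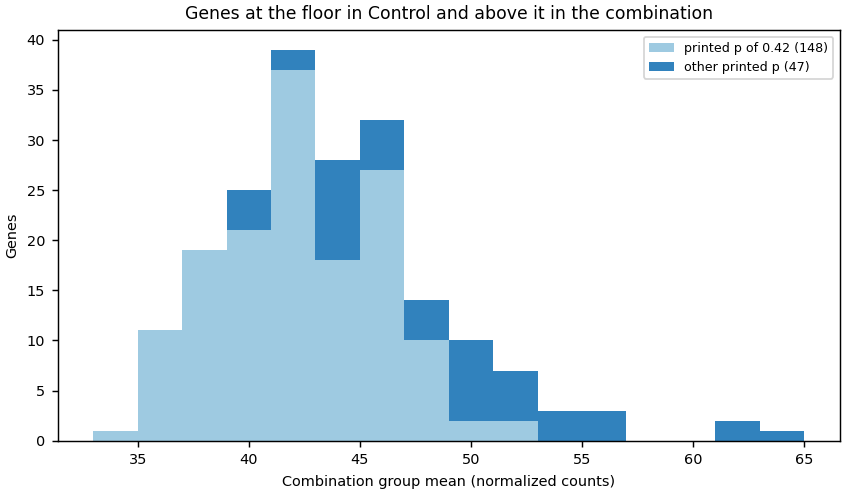
The histogram counts the 195 genes that were at the floor of 33 in Control and left it under the combination, by combination mean in normalized counts in steps of 2. Genes with a printed p of 0.42, which number 148, fill the lower and middle bars, and the 47 with another p reach the highest means.

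The single treatments give a frame for these values. The 3 tables share the Control column, so their ratios are not independent, and no table tests the combination against a single compound. Under the same call rule 191 of 704 genes were called after heteronemin (27.1%) and 9 of 714 after tetrac (1.26%). Of the 69 genes called at 1.5-fold after the combination, the tetrac mean was within 1.5-fold of Control in 67. Over all 69 it ran from 0.81 to 1.55 times Control, with NRP1 and PTK6, neither called after tetrac, above 1.5 times. The 2 of the 69 that were called after tetrac were MAPK3, which was lower, and ANGPTL4, which was higher. Over the 279 genes that Control held at the floor, the combination had a median mean of 40.7, tetrac of 41.2 and heteronemin of 50.6, and the heteronemin mean exceeded the combination mean in 205 of them.

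Among the 332 genes with all 4 means at 100 or more, Control was the highest of the 4 groups in 195 genes, heteronemin in 33, tetrac in 28 and the combination in 76. Heteronemin was the lowest in 157, the combination in 78, tetrac in 68 and Control in 29. The combination mean was above the heteronemin mean in 229 of the 332. The panel sum was 297671 after the combination and 280484 after heteronemin, and the housekeeping geometric means were 297.5 and 296.1. The part of this difference in panel sum in these orders was not tested. Of the 18 called rises that started from 100 or more, the combination mean exceeded that of heteronemin in 18, but these genes were chosen on the combination. Of 12 such rises chosen on heteronemin instead, the combination was the higher in 11. Of the 28 called falls from 100 or more, the combination was the lower in 18, and of 29 chosen on heteronemin it was the lower in 12. Rises near the floor showed another pattern: of the 20 that started under 100, the combination mean was below that of heteronemin in 12, such as FUT3 (106 after heteronemin and 81.0 after the combination) and KRT7 (83.7 and 60.5). None of these orders has a test.

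Among the 332 genes with all 4 means at 100 or more, those in which the combination stood farthest above all other groups were led by EPHA2, an ephrin receptor gene, whose combination mean of 559 compares with 385 in Control, 384 after heteronemin and 318 after tetrac. It was 1.45 times the highest of the others, but the authors' p against Control was 0.09 in the authors' deposited table and it was not called. JUN was 1.36 times the highest other mean, and GDF15 and CTSL 1.32 times. On the low side of the same 332 genes, FGFR3, a receptor for fibroblast growth factors, was at 296, 289, 287 and 212 in the same order of groups, 1.36-fold under the lowest of the others. FHL1, a LIM domain gene that was not called, was at 131, 148, 136 and 103 in the same order of groups. The tight junction gene TJP3 was at 293, 259, 284 and 204. RGCC and COL18A1 were 1.24-fold and 1.23-fold under the lowest other mean.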

How the data were processed

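The samples were grouped by their treatment labels. Per the labels, TRIzol RNA was measured with the nCounter PanCancer Progression panel. The authors used nSolver 4.0 to normalize counts, as the design text says; the deposited signal is 1 normalized value per gene and group. The authors deposited a score, a signed fold change that matched the quotient of the means within 0.00503, and a p-value printed to 2 decimals, so 0 stands for any p under 0.005. The kind of mean, the test and the origin of the floor of 33 are not stated in the labels or headers. The depth per sample is unknown.

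Log2 ratios of the deposited means were computed over 770 genes, without pseudocount or filter, and genes at the floor in Control were kept apart. A gene was called at the authors' unadjusted p under 0.05. Named are all called genes at 1.5-fold or more, called members of 21 lists, the 10 largest rises from the floor, uncalled genes at 2-fold or more, 5 genes farthest above and 5 below all other groups among those with all 4 means at 100 or more, and the EGF receptor genes; some genes that these rules name are not reported here. The members and lists were chosen with earlier results of these data known. Of 519 listed genes, 286 were measured. Symbols are those of the tables; 755 were current and 15 older ones matched by accession. Alternatives varied the p, the floor, the scaling and the level. The counting was tested on simulated data. Python 3.11.15, numpy 2.4.6, pandas 2.3.3, scipy 1.17.1 and matplotlib 3.10.9 were used.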

Additional observations from a re-analysis of the deposited data

How the results depend on the processing

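No paired analysis was possible because the tables hold group means without replicate numbers, and for the same reason no sample could be left out. The 153 calls became 48 (19 higher, 29 lower) with Benjamini-Hochberg adjustment of the printed p and also at p under 0.01, 0 (0 higher, 0 lower) with the largest p that rounding allows, where the smallest adjusted p was 0.0715, and 69 (31 lower) at 1.5-fold. The 87 genes at least 1.5-fold higher became 179 when divided by the panel sum and 21 at 2-fold. The 34 lower became 11 by panel sum, 20 when centred on the median, and 5 at 2-fold. With the floor raised to 50, 41 were higher and 33 lower, and with the floor at 100, 22 were higher and 31 lower. The median of genes above the floor, -0.05, was -0.04 by housekeeping genes, 0.11 by panel sum, -0.12 and -0.16 with the floor at 50 and 100, and -0.16 for Control means of 100 or more. Restricted to that level, called members went from 4 to 2 for AP-1 and MYC factors, 5 to 3 for stress, 1 to 0 for inflammatory, 10 to 5 for angiogenic, 5 to 3 for hypoxia and 4 to 1 for mesenchymal genes. Of those 5 angiogenic genes 2 rose and 3 fell. Of 104 named genes rescaled, COL6A2 was the 1 that reversed, to 0.05 by panel sum. Raising the floor can shrink a ratio but cannot reverse it. With the floor at 100, the rises of ANGPTL2, CCDC80, DPT, FUT3, KRT7, NR4A3, PTK6, SRPX2, TNFRSF12A and ZEB1 went to a log2 ratio of 0. The falls of BMP7, BMPR2, CRIP2, FN1 and TSPAN1 did so too. Other rises shrank without reaching 0. Among them, MYCL went from 1.52 to 0.07, COL7A1 from 1.07 to 0.11 and HKDC1 from 1.66 to 0.12. LAMA3 went from 1.31 to 0.19, ADM2 from 1.02 to 0.45 and SPP1 from 1.92 to 0.46. The 18 rises at 1.5-fold that started from a Control mean of 100 or more kept their ratio. Near the floor, signal limits every ratio from below.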

Other observations

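Some genes sat at the limit of the call rule. A printed p of 0.05 covers values on both sides of the limit, and 15 genes in the authors' deposited table had it after the combination, 6 of them at 1.5-fold or more. ITGB8, an integrin chain that helps to activate latent TGF-beta, had a combination mean of 94.4 against 208 in Control, 2.20-fold lower, with 139 after heteronemin and 203 after tetrac. VCAN, the proteoglycan versican, was at 195 in Control and 116 after the combination, and the surface glycoprotein gene CD24 at 392 and 261. The cytokine gene TNFSF13 was at 56.0 and 97.2. The pentraxin gene PTX3 was 1.72-fold above its Control mean of 43.6. CD34 was also at 2-fold or more without a call, at 35.6 and 76.3 with p = 0.10 in the authors' deposited table. VCAN, CD24, PTX3 and TNFSF13 were picked after their values were seen.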
